A study of Mus musculus with 9 samples.

Results

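The genes of the translation initiation factors were examined in RNA-Seq of whole osteosarcoma (OS) tumors from genetically engineered mouse models (GEMMs). They were taken as every protein-coding gene of the deposited table whose symbol begins with Eif1, Eif2, Eif3, Eif4, Eif5 or Eif6. The 4 eIF2 alpha kinase genes (Eif2ak1 to Eif2ak4) and the sex-linked pair Eif2s3x and Eif2s3y were left out, and 10 pseudogenes with such symbols did not meet the rule. This gave 51 genes of 55367 in the table. All animals carried Cre recombinase under the osteoblast promoter Col2.3 and a single floxed Trp53 allele (Trp53 fl/+). The p53-driven group had this genotype alone (4 tumors: F187, F325, F331 and F368). The Myc-knockin group also carried a Lox-Stop-Lox c-Myc T58A allele (5 tumors: M351, M408, M9, M624 and M664), so the comparison asked how the factor genes differed when Myc was switched on in cells that had used Cre. Tumors arose spontaneously and were sequenced whole, their ages were not given in the labels, and cells other than osteoblasts and their descendants would have kept their floxed alleles unrecombined. In such bulk RNA, fewer cells of a type and less RNA per cell cannot be told apart.

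Initiation factors bring the small ribosomal subunit, the initiator tRNA and the mRNA together. eIF2 carries the initiator tRNA, eIF2B reloads eIF2 with GTP, eIF3 is a many-subunit scaffold on the small subunit, eIF4F (the cap-binding eIF4E, the helicase eIF4A and the scaffold eIF4G) recruits capped mRNA, and eIF1, eIF1A and eIF5 act in the choice of the start codon. eIF5B helps the large subunit to join, eIF6 keeps the subunits apart, and eIF5A, named for initiation, acts mainly in elongation and carries the modified amino acid hypusine. Genes for ribosomes and translation factors are well-known targets of MYC, a transcription factor that binds the E-box with its partner MAX.

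Expression is given as CPM, the counts on a gene relative to the library size after edgeR's TMM scaling, and a fold change is Myc knockin over p53 driven. A call needed an adjusted p under 0.05 from edgeR's quasi-likelihood test (Benjamini-Hochberg over 15365 genes) and a fold change over 1.5. Libraries held 2716322 to 17073285 counts, of which the 51 genes took 4964 (in M9) to 240482 (in M624). The floor of 3 counts lay between 0.114 CPM in M624 and 2.39 CPM in M9. Several libraries stood apart. Satellite-repeat genes (10 of them) took 23.2% to 81.0% of the counts in F187, M351, M408 and M9, against at most 0.0242% in the other 5 (these 4 are called the satellite libraries here). Reads spread over the genome, estimated from chemosensory receptor genes, made up 23.9% of the remaining counts in M9, 16.7% in M351, 5.48% in F187, 0.596% in M408 and at most 0.067% in the other 5. In M624 and M664, the small nuclear RNA Rn7sk was at 5.33 and 9.32 CPM, against 8858 CPM or more in the other 7 libraries. The study's methods give 1 preparation for all tumors, and whether this pair was prepared otherwise is not given in the sources used here. Myc itself was at 46.2, 43.5, 67.1 and 60.4 CPM in F187, F325, F331 and F368, and at 270, 520, 144, 1045 and 905 CPM in M351, M408, M9, M624 and M664, so every Myc-knockin tumor lay above every p53-driven tumor (log2 fold change 3.41, SE 0.59, edgeR adjusted p = 0.0217). M9 had the least Myc of the Myc-knockin tumors.

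Of the 51 factor genes, 48 had enough counts to be tested, and no factor gene was called in either direction by edgeR with all 9 tumors. Among all genes tested, 2.26% were called higher with Myc knockin and 3% were called lower. The sign of the estimates was uneven, since 38 of the 48 had a positive log2 fold change, with a median of 0.44 against 0.14 over all genes tested. At an unadjusted p under 0.05, 11 factor genes were higher and 1 lower, where 14.9% and 11.8% of all genes were. At least 4 of the 5 Myc-knockin tumors lay above every p53-driven tumor for 16 of the 48 genes, against 15.6% of all genes. All 5 did so for only Eif2b2 and Eif3i, and no gene had all 5 below every p53-driven tumor, against 5.41% and 7.54% of all genes. The estimates thus lay mostly on the side of the Myc-knockin tumors, with a wide spread among those tumors.

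**Figure D1:**
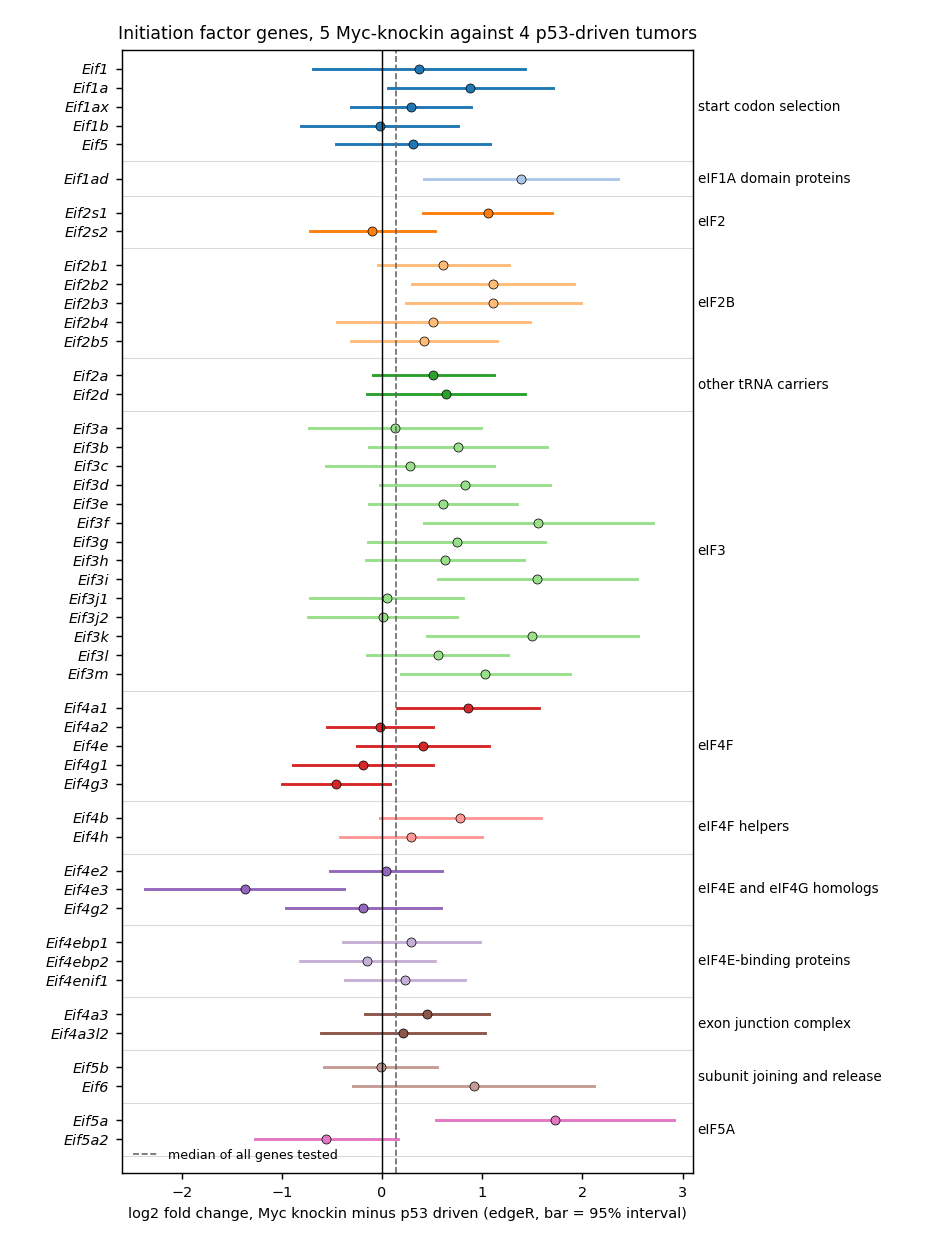
Log2 fold change of the 48 tested factor genes, Myc knockin minus p53 driven, grouped by complex on the y axis; points are edgeR estimates, bars their 95% intervals, and the dashed line the median of all genes tested (0.14). All 14 eIF3 genes and all 5 eIF2B genes lie right of 0, while the eIF4F genes lie on both sides.

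The 5 Myc-knockin tumors did not behave alike. The 51 genes together came to 5782 CPM in M351, 7610 in M408, 3955 in M9, 9163 in M624 and 8390 in M664, and to 4392, 5758, 5381 and 5605 CPM in F187, F325, F331 and F368. M408, M624 and M664 thus lay above every p53-driven tumor, M351 was level with the highest of them, F325, and M9 was the lowest of all 9. Measured in log2 CPM from the p53-driven mean, the median factor gene stood at 0.86 in M624, 0.66 in M664, 0.49 in M408, 0.06 in M351 and -0.32 in M9, whereas the median of all genes tested stayed between -0.03 and 0.04 in these 5. Of the 48 genes, 41, 38, 39 and 28 lay above the p53-driven mean in M624, M664, M408 and M351, and 13 did in M9.

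**Figure D2:**
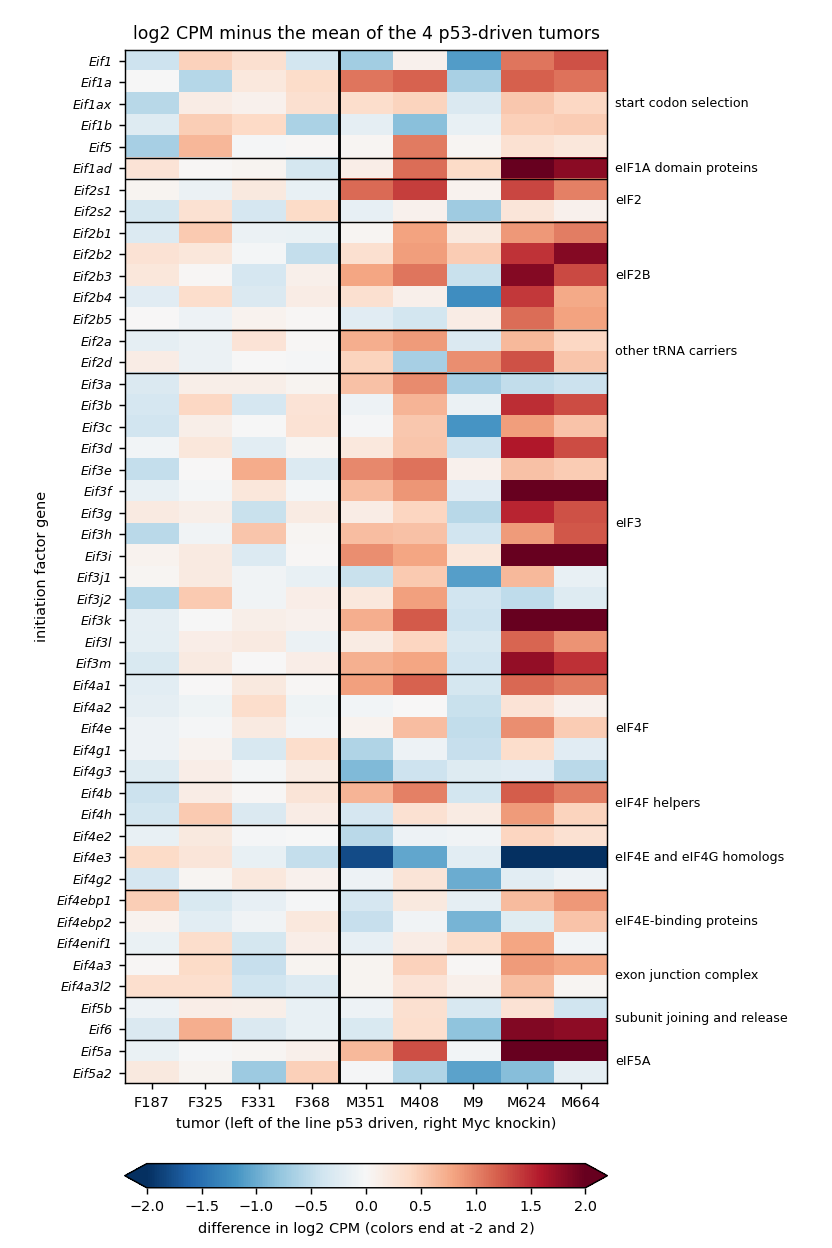
Log2 CPM of each tested factor gene (y axis, grouped by complex) in each tumor (x axis), minus the mean of the 4 p53-driven tumors; red is higher and blue lower, and colors end at -2 and 2. M624, M664 and M408 are red for 41, 38 and 39 of the 48 genes, most deeply in M624 and M664, and M9 is mostly blue.

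How many factor genes were called depended on which libraries entered the fit. Without M9, edgeR called 10 factor genes higher and 1 lower, where 6.03% and 4.34% of all genes were called. Without the 4 satellite libraries, which leaves F325, F331 and F368 against M624 and M664 alone, it called 18 higher and 1 lower, where 15.7% and 12.1% of all genes were. DESeq2 on all 9 tumors called 10 higher and 1 lower, where 10.1% and 7.3% of all genes were, and each of these 10 was among the 18. Without M624 and M664, edgeR called none in either direction, where 1.8% of all genes were called higher and 2.81% lower, and 3 were higher and 0 lower at an unadjusted p under 0.05, where 12.4% and 13.3% of all genes were. The calls made without the satellite libraries therefore compare only the pair low in Rn7sk with 3 p53-driven tumors, and within that fit the pair's other differences and the genotype cannot be told apart. The 1 gene called lower was Eif4e3 in each fit that called one. With limma-voom and quality weights on all 9 tumors, 1 factor gene, Eif2s1, was called higher and none lower, where 4.32% and 6.51% of all genes were called. At an unadjusted p under 0.05 that fit had 7 higher and 3 lower, where 13.4% and 15.8% of all genes were.

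**Figure D3:**
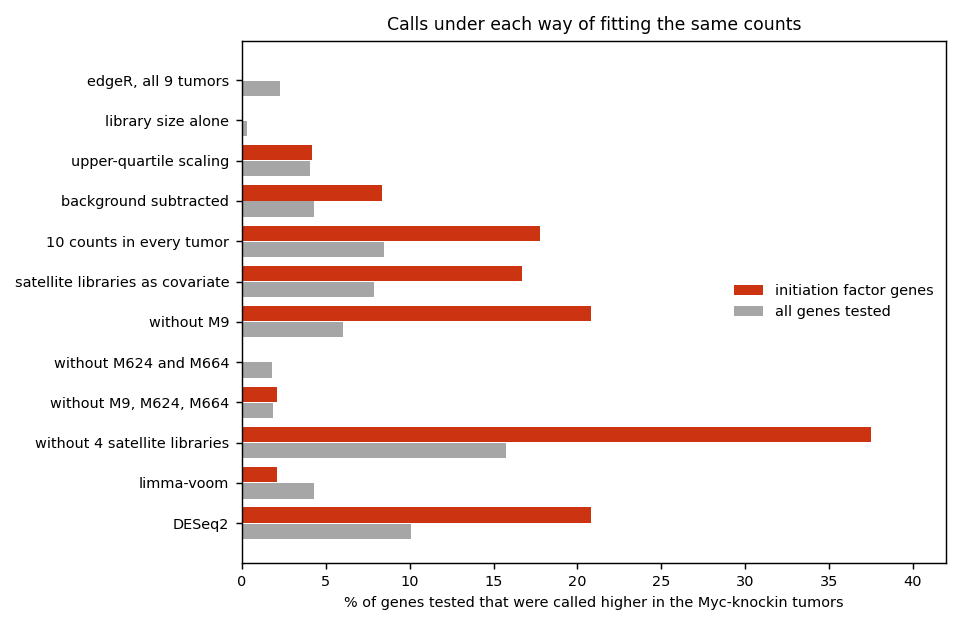
Share of genes called higher in the Myc-knockin tumors (x axis, % of genes tested) under 12 ways of fitting the counts (y axis), for the factor genes (red) and for all genes tested (gray). With all 9 tumors in edgeR the red bar is at 0, and it is longest without the 4 satellite libraries, where the gray bar is also longest.

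Among the carriers of the initiator tRNA, Eif2s1 had the smallest p of any factor gene. It encodes the alpha subunit, the one that stress kinases phosphorylate, and spans bases 78861819 to 78887010 of chromosome 12 (mm10). Its transcript was at 51.4, 45.6, 56.6 and 44.4 CPM in F187, F325, F331 and F368, and at 108, 129, 51.8, 125 and 99.7 CPM in M351, M408, M9, M624 and M664. M9 fell inside the p53-driven range and the other 4 Myc-knockin tumors lay well above it. The log2 fold change was 1.06 (SE 0.29, edgeR adjusted p = 0.0584), short of a call. The estimate depended little on M624 and M664, with a log2 fold change of 1.03 without them (edgeR adjusted p = 0.0931) and 1.23 when M9 was also left out (edgeR adjusted p = 0.0370). Eif2s2, the beta subunit, had means of 91.6 ± 25.2 CPM (SD, n = 4) and 85.5 ± 19.8 CPM (SD, n = 5) and a log2 fold change of -0.10. Per kilobase of exon, the ratio of Eif2s1 to Eif2s2 was 0.522 to 1.1 in the p53-driven tumors and 1.30 to 1.85 in the Myc-knockin tumors. These ranges did not overlap, but several ratios were taken, and how often ratios of other gene pairs separate was not worked out. In M9 the ratio of 1.30 came with Eif2s2 at 54.2 CPM, under the lowest p53-driven value of 69.5 CPM. The gamma subunit was outside the genes chosen.

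The 5 genes of eIF2B all had positive estimates, from 0.42 to 1.11 with a median of 0.61. None was called, and 2 of them were higher at an unadjusted p under 0.05, where 14.9% of all genes were. Eif2b2, the beta subunit, was at 15.0, 14.5, 11.9 and 8.75 CPM in F187, F325, F331 and F368 and at 15.4, 22.0, 17.5, 34.0 and 44.3 CPM in M351, M408, M9, M624 and M664. Its groups did not overlap, but the gap between the highest p53-driven tumor and the lowest Myc-knockin tumor was small beside the spread within each group (log2 fold change 1.11, SE 0.37, edgeR adjusted p = 0.0905). Eif2b3, the gamma subunit, had the same log2 fold change of 1.11 (SE 0.40, edgeR adjusted p = 0.106), with 10.4 CPM in M9, under every p53-driven tumor, and 51.5 CPM in M624. Genomic background made up an estimated 61.7% of the Eif2b3 reads in M9. The other tRNA carriers, Eif2a and Eif2d, which act outside the main eIF2 route, had log2 fold changes of 0.51 and 0.64, neither called. Eif2a was at 51.4 to 70.9 CPM in the p53-driven tumors and at 96.6, 106, 47.8, 91.3 and 78.2 CPM in M351, M408, M9, M624 and M664, with M9 again the exception.

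eIF3 was the complex with the most members, and its 14 genes all had positive estimates, from 0.01 to 1.56 with a median of 0.69. None was called with all 9 tumors. At an unadjusted p under 0.05, 4 were higher (Eif3i, Eif3k, Eif3f and Eif3m), where 14.9% of all genes were. Together the 14 genes came to 1122, 1528, 1523 and 1446 CPM in F187, F325, F331 and F368, and to 1872, 2361, 1037, 2815 and 2674 CPM in M351, M408, M9, M624 and M664. Again 4 of 5 Myc-knockin tumors lay above every p53-driven tumor, and M9 lay below them all.

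Eif3i, a WD-repeat subunit, gave the smallest p within eIF3. It was at 48.6, 52.4, 38.4 and 47.2 CPM in F187, F325, F331 and F368 and at 88.6, 80.6, 54.2, 251 and 205 CPM in M351, M408, M9, M624 and M664. The groups did not overlap, and the pair M624 and M664 stood far above the other 3 Myc-knockin tumors (log2 fold change 1.55, SE 0.45, edgeR adjusted p = 0.0651). Leaving out that pair gave 0.74 on the log2 scale (edgeR adjusted p = 0.111). Eif3f, one of the subunits of the MPN fold, was also highest in M624 and M664, with 52.9 to 68.9 CPM in the p53-driven tumors and 89.9, 109, 50.2, 274 and 344 CPM in M351, M408, M9, M624 and M664 (log2 fold change 1.56, SE 0.52, edgeR adjusted p = 0.0904). M9 lay below every p53-driven tumor for this gene, and without M624 and M664 the estimate was 0.56 (edgeR adjusted p = 0.258). Eif3k, a small subunit of the eIF3 octamer, was at 30.8 to 37.7 CPM in the p53-driven tumors and at 57.9, 81.7, 26.3, 181 and 146 CPM in the same 5 tumors (log2 fold change 1.5, SE 0.48, edgeR adjusted p = 0.0813), and its estimate without M624 and M664 was 0.74 (edgeR adjusted p = 0.220). Eif3m had a log2 fold change of 1.03 (SE 0.38, edgeR adjusted p = 0.118).

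Eif3a, the largest subunit and a core of the scaffold, showed a different order. It was at 264, 349, 347 and 332 CPM in F187, F325, F331 and F368, at 480 and 617 CPM in M351 and M408, but at 203, 228 and 238 CPM in M9, M624 and M664. So 2 Myc-knockin tumors lay above and 3 below every p53-driven tumor, and the log2 fold change was 0.13 (SE 0.39, edgeR adjusted p = 0.867). Its sign was not stable: the value was -0.54 without the satellite libraries and 0.74 without M9, M624 and M664. Per kilobase of exon, the ratio of Eif3i to Eif3a was 0.261 to 0.435 in the p53-driven tumors, 0.436 in M351, 0.308 in M408 and 0.629 in M9, but 2.60 in M624 and 2.03 in M664. The ratio of Eif3b to Eif3a moved in the same way, with 0.944 to 1.58 in the p53-driven tumors, 0.804, 1.08 and 1.89 in M351, M408 and M9, and 5.07 and 4.31 in M624 and M664. The subunits of this complex were thus counted in other proportions in M624 and M664 than in the other 7 libraries. Reads of the paralogs Eif3j1 and Eif3j2 may be shared between them, and 43.3% of the exon bases of Eif3d overlap an antisense gene. Their estimates are uncertain for that reason.

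**Figure D4:**
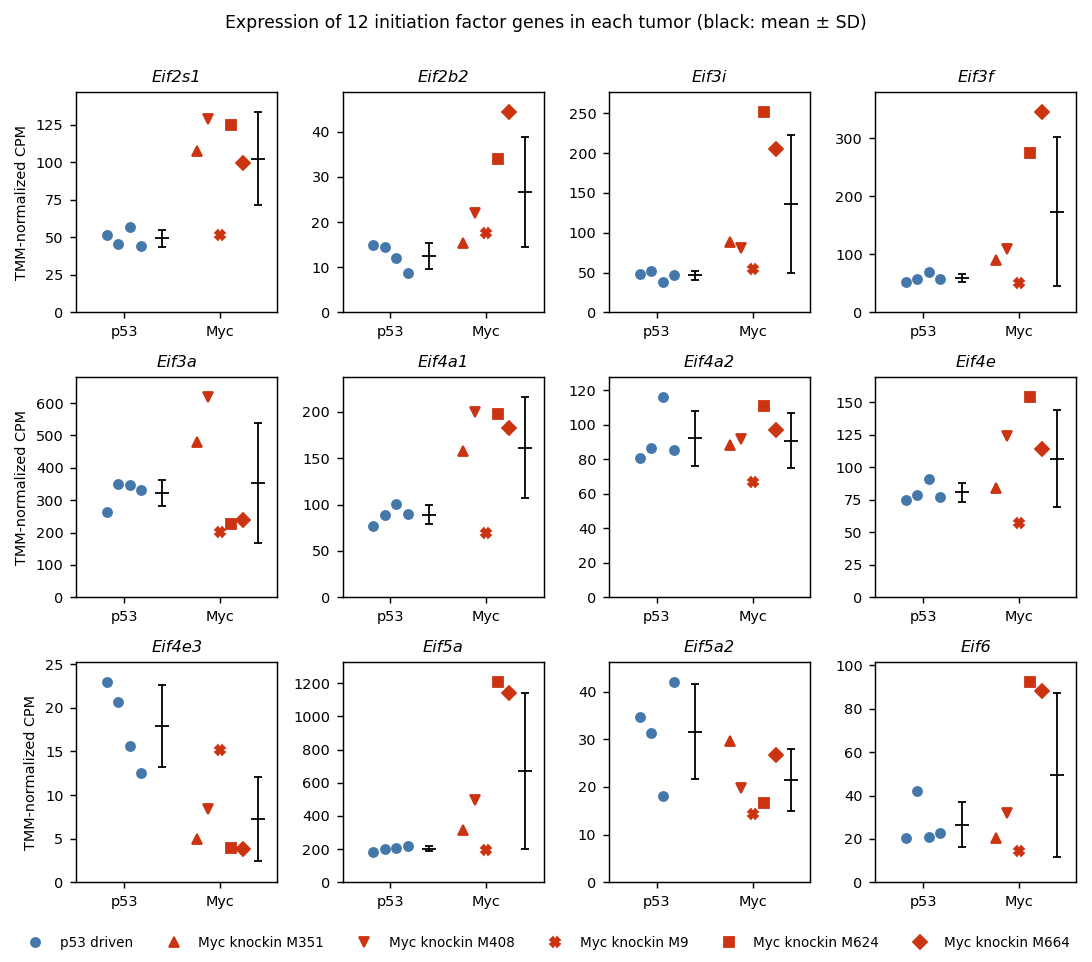
TMM-normalized CPM of 12 factor genes (y axes from 0) in each tumor; blue circles are p53-driven tumors, red symbols the 5 Myc-knockin tumors by name, and black bars the mean ± SD of each group (n = 4 and n = 5). M624 and M664 are far above the rest for Eif3i, Eif3f, Eif5a and Eif6, M351 and M408 are highest for Eif3a, and M9 lies within or below the p53-driven range for most of the genes shown.

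In eIF4F, 2 of 5 genes had positive estimates, none was called, and the median log2 fold change was -0.02. Eif4a1, the main helicase gene, was at 76.6, 88.8, 101 and 90.1 CPM in F187, F325, F331 and F368 and at 158, 200, 69.3, 198 and 182 CPM in M351, M408, M9, M624 and M664. Its 4 higher Myc-knockin tumors were close to each other, unlike those of the eIF3 genes, and M9 lay below every p53-driven tumor (log2 fold change 0.86, SE 0.32, edgeR adjusted p = 0.123). Without M9 the log2 fold change was 1.05 and the gene was called (edgeR adjusted p = 0.0282). Its paralog Eif4a2 did not follow, with 81.0 to 116 CPM in the p53-driven tumors and 66.9 to 111 CPM in the Myc-knockin tumors (log2 fold change -0.02, SE 0.24, 95% interval -0.55 to 0.51). That sign turned under several alternatives. Per kilobase of exon, the ratio of Eif4a1 to Eif4a2 was 1.08 to 1.30 in the p53-driven tumors, 1.28 in M9 and 2.20 to 2.69 in the other 4 Myc-knockin tumors. The cap-binding protein gene Eif4e was at 75.1 to 91.2 CPM in the p53-driven tumors and at 84.3, 124, 57.4, 154 and 114 CPM in M351, M408, M9, M624 and M664 (log2 fold change 0.41, SE 0.30, edgeR adjusted p = 0.410). The scaffold genes Eif4g1 and Eif4g3 had negative estimates, -0.19 (SE 0.32, edgeR adjusted p = 0.742) and -0.46 (SE 0.25, edgeR adjusted p = 0.259). Eif4g1 was at 406 to 641 CPM in the p53-driven tumors and at 334 to 644 CPM in the Myc-knockin tumors, with M351 and M9 (334 and 366 CPM) below every p53-driven tumor.

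Among the helpers of eIF4F, Eif4b, which stimulates the helicase, was at 212, 314, 288 and 340 CPM in F187, F325, F331 and F368 and at 457, 568, 221, 656 and 580 CPM in M351, M408, M9, M624 and M664. All but M9 lay above the p53-driven range (log2 fold change 0.78, SE 0.37, edgeR adjusted p = 0.196), and Eif4h had a log2 fold change of 0.29. Among the proteins that hold eIF4E back, Eif4ebp1, the best-known target of mTORC1 in this family, was at 53.3, 30.7, 33.8 and 37.3 CPM in F187, F325, F331 and F368 and at 30.2, 43.4, 33.5, 58.6 and 69.1 CPM in M351, M408, M9, M624 and M664 (log2 fold change 0.29, SE 0.31, edgeR adjusted p = 0.581). These groups overlapped widely. The other tested genes of that set, Eif4ebp2 and Eif4enif1, had log2 fold changes of -0.15 and 0.23.

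Eif4e3, a homolog of the cap-binding protein, was the one factor gene lower at an unadjusted p under 0.05. It was at 22.9, 20.7, 15.7 and 12.5 CPM in F187, F325, F331 and F368 and at 4.92, 8.42, 15.1, 3.96 and 3.80 CPM in M351, M408, M9, M624 and M664. The Myc-knockin tumors other than M9 lay below every p53-driven tumor (log2 fold change -1.37, SE 0.45, edgeR adjusted p = 0.0893). Background made up an estimated 35.0% of its 8 reads in M351 and 16.3% of its 19 reads in M9. With background subtracted from all genes the log2 fold change was -1.36. Without M9 the log2 fold change was -1.77 and the gene was called (edgeR adjusted p = 0.0266), and without M624 and M664 it was -0.89 (edgeR adjusted p = 0.1996). Per kilobase of exon, the ratio of Eif4e3 to Eif4e was 0.387 to 0.729 in the p53-driven tumors, 0.630 in M9 and 0.0616 to 0.162 in the other 4. Leukocyte markers were also lower as a group. The 5 leukocyte genes summed to 399 to 780 CPM in the p53-driven tumors and 121 to 330 CPM in the Myc-knockin tumors. Within the Myc-knockin tumors their order was not that of Eif4e3, with a sum of 153 CPM in M9 and 330 CPM in M664. The part of leukocytes in the level of Eif4e3 was not tested. Eif4e2 and Eif4g2 had log2 fold changes of 0.04 and -0.19.

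In the selection of the start codon, Eif1a had the smallest p of the 5 genes. It was at 54.9, 37.3, 64.1 and 71.1 CPM in F187, F325, F331 and F368, at 117, 126, 127 and 118 CPM in M351, M408, M624 and M664, and at 35.1 CPM in M9. The 4 higher tumors lay within 10 CPM of each other, and M9 lay below all p53-driven tumors (log2 fold change 0.88, SE 0.38, edgeR adjusted p = 0.161). The X-linked paralog Eif1ax had a log2 fold change of 0.29 (SE 0.27), and reads may be shared between both. Eif5, which activates the GTPase of eIF2, had a log2 fold change of 0.31 (SE 0.35, edgeR adjusted p = 0.605), with one tumor of each group far up, F325 at 346 CPM and M408 at 451 CPM. Eif1ad, a gene of the eIF1A domain, was at 10.5 to 16.2 CPM in the p53-driven tumors and at 14.8, 29.3, 17.5, 64.9 and 47.5 CPM in M351, M408, M9, M624 and M664 (log2 fold change 1.39, SE 0.44, edgeR adjusted p = 0.0798). Without M624 and M664 its estimate was 0.70 (edgeR adjusted p = 0.196), and 15.3% of its exon bases overlap the gene Banf1.

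eIF5A had the largest estimate. Eif5a, on the minus strand of chromosome 11 of mm10 from 69916714 to 69921958, was at 184, 201, 208 and 218 CPM in F187, F325, F331 and F368, and at 318, 494, 196, 1205 and 1139 CPM in M351, M408, M9, M624 and M664. The p53-driven tumors were tight, M9 fell among them, M351 and M408 lay above, and M624 and M664 were more than 5 times the p53-driven mean of 203 CPM. The log2 fold change was 1.73 (SE 0.54, edgeR adjusted p = 0.0774), 0.80 without M624 and M664 (edgeR adjusted p = 0.184) and 1.96 without M9, where it was called (edgeR adjusted p = 0.0302). Its tissue-restricted paralog Eif5a2 had a negative estimate, at 31.6 ± 9.96 CPM (SD, n = 4) and 21.4 ± 6.52 CPM (SD, n = 5), with a log2 fold change of -0.56 (SE 0.32, edgeR adjusted p = 0.296). Per kilobase of exon, Eif5a exceeded Eif5a2 by 11.0 to 24.2 times in the p53-driven tumors, 22.7 in M351, 52.8 in M408, 28.9 in M9, 153 in M624 and 90.2 in M664. Of the remaining genes, Eif6 was at 20.5, 42.2, 20.7 and 22.7 CPM in F187, F325, F331 and F368 and at 20.3, 32.1, 14.3, 92.2 and 88.1 CPM in M351, M408, M9, M624 and M664. Only M624 and M664 lay above the p53-driven range (log2 fold change 0.92, SE 0.55, edgeR adjusted p = 0.309), and without them the value was -0.15. Eif5b had a log2 fold change of -0.01 (95% interval -0.58 to 0.55). Eif4a3, a core protein of the exon junction complex, had 0.45 (SE 0.28, edgeR adjusted p = 0.330).

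Levels within the family can be compared per kilobase of exon. In the p53-driven tumors the highest means were those of Eif3h (91.8 CPM per kb), Eif4g2 (86.6 CPM per kb), Eif5a (85.3 CPM per kb), Eif4g1 (70.2 CPM per kb) and Eif4b (64.5 CPM per kb). The first 3 differed by less than the spread of Eif3h, scaled to its length, among the p53-driven tumors, 148 ± 46.2 CPM (SD, n = 4). With Myc knockin the order was led by Eif5a (282 CPM per kb), Eif3h (142 CPM per kb), Eif4b (111 CPM per kb) and Eif3b (82.9 CPM per kb). The SD of Eif5a there, 471 CPM around a mean of 670 CPM (n = 5), was larger, scaled to the gene's length, than its distance to Eif3h. The 3 genes not tested, Eif4a3l1, Eif4e1b and Eif4ebp3, had between 0 and 14 counts in every library, and in M351 the estimated background alone came to between 83.0% and 125.5% of their counts.

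In M624 and M664 the difference from the p53-driven tumors also varied with the length of the gene. Across the 48 genes, Pearson's r between exon length and the log2 difference of this pair was -0.36 (Spearman's rho -0.47), a description across genes that share the same libraries. Genes shorter than the median of 4250 bases had a median difference of 1.12 and longer genes 0.36. In M351, M408 and M9 the same values were r = -0.05, 0.17 and 0.09. Over all genes tested the pair gave r = -0.08 (rho -0.16), with medians of 0.19 for shorter and -0.25 for longer genes. Across the 14 eIF3 genes the pair gave r = -0.41 (rho -0.34). Eif3a has the longest exons of these genes, 8731 bases, and the lowest difference of the pair, -0.46, while Eif3f with 2891 bases had 2.38. Other eIF3 genes departed from that order, as Eif3j2 with 2379 bases was at -0.38, and Eif3h, the shortest with 1612 bases, was at 1.05. The part of length in the factor genes' values was not tested.

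**Figure D5:**
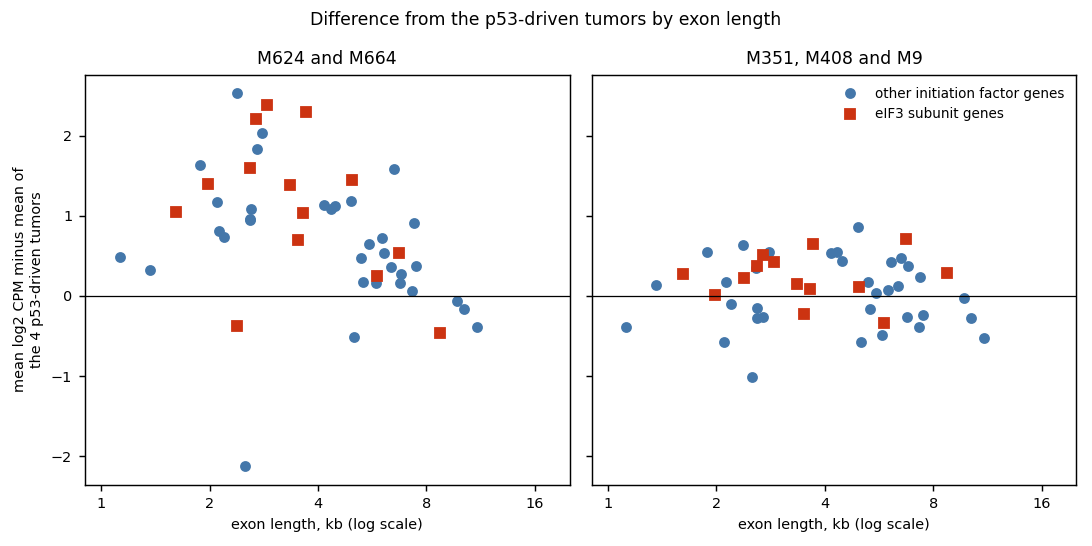
Difference in mean log2 CPM from the 4 p53-driven tumors (y axis) against exon length in kilobases (x axis, log scale) for the 48 tested factor genes, with eIF3 genes as red squares; left the mean of M624 and M664, right the mean of M351, M408 and M9. On the left, genes above about 8 kb lie near or below 0 and the genes above 2 are all of 2 to 4 kb, while on the right the points scatter around 0.13, their median.

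Promoter sequence was looked at because MYC binds the E-box, written CACGTG, which reads the same on both strands. RefSeq windows of 300 bases (250 before a transcript start to 50 after, GRCm38.p6, the assembly of mm10) were found by symbol for 38 of the 51 genes. The motif was present in a window of 10 of these 38 genes (26.3%), against 8.09% of 27025 genes in the RefSeq table, and in 12 of 50 windows (24%), against 7.15% of 32851. The 10 genes with the motif had a median log2 fold change of 0.35, from -0.56 to 1.73, and the 27 tested genes without it 0.45. The genes of the RefSeq table were not chosen for expression in these tumors, and no matched set was compared, so the shares are not of like sets. A match is only a run of letters, and no binding was measured. Stretches of 30 bases around motifs outside annotated exons are shown for the genes described above, with the E-box in capitals, 5′ to 3′ on the strand of the gene. They lie at chr7:108934335-108934364 (Eif3f, plus strand), chr7:28981915-28981944 (Eif3k, minus strand), chr11:69672595-69672624 (Eif4a1, minus strand), chr16:20672661-20672690 (Eif4g1, plus strand), chr11:69921443-69921472 (Eif5a, minus strand), and chr3:28781123-28781152 and chr3:28781148-28781177 (Eif5a2, plus strand).
Eif3f: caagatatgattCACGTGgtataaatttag
Eif3k: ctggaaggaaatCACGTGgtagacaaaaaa
Eif4a1: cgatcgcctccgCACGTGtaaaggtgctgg
Eif4g1: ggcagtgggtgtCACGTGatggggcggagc
Eif5a: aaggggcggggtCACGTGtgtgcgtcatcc
Eif5a2, upstream site: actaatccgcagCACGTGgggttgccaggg
Eif5a2, downstream site: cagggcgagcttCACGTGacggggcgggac
The set holds both paralogs of eIF5A, whose estimates had opposite signs (1.73 and -0.56), and Eif4g1, whose estimate was -0.19, beside Eif3f, Eif3k and Eif4a1 with 1.56, 1.5 and 0.86.

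Genes that act with the initiation factors were taken from lists by role. Of the pair of enzymes that make hypusine on eIF5A, Dhps, the deoxyhypusine synthase, was called higher, as were 2.26% of all genes. It was at 3.95, 3.58, 5.80 and 3.53 CPM in F187, F325, F331 and F368 and at 10.5, 12.1, 11.95, 22.1 and 30.6 CPM in M351, M408, M9, M624 and M664 (log2 fold change 2.07, SE 0.42, edgeR adjusted p = 0.0280). The groups did not overlap, as was so on the higher side for 5.41% of all genes. Unlike Eif5a itself, Dhps was up in M9 as well, and it was also called without M624 and M664 (log2 fold change 1.5, edgeR adjusted p = 0.0455), and in 15 of the 22 alternative fits in all. Dohh, the second enzyme, had a log2 fold change of 1.70 and was not called (edgeR adjusted p = 0.160).

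Of the 4 eIF2 alpha kinases and the 2 phosphatase regulators, 1 was called, and it was lower, where 3% of all genes were called lower. Eif2ak3, the kinase PERK of the endoplasmic reticulum, was at 64.0, 56.2, 67.9 and 110 CPM in F187, F325, F331 and F368 and at 20.9, 17.8, 20.7, 28.7 and 24.2 CPM in M351, M408, M9, M624 and M664. Every Myc-knockin tumor, M9 and the pair included, lay below every p53-driven tumor, as was so for 7.54% of all genes. The log2 fold change was -1.72 (SE 0.28, edgeR adjusted p = 0.0188), and 18 of 22 other fits called it. Osteoblast markers were also lower as a group. The 8 genes of that list summed to 42800 to 95530 CPM in the p53-driven tumors and 2240 to 24480 CPM in the Myc-knockin tumors. M624 had the lowest of these sums and the highest Eif2ak3 of the Myc-knockin tumors. The part of osteoblasts in the level of Eif2ak3 was not tested. The other 5 genes of the list had log2 fold changes from -0.87 to 0.17.

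Among 12 elongation and termination factor genes, 1 was called higher, where 2.26% of all genes were, and 11 had positive estimates. The median log2 fold change was 0.93. The gene called was Gspt2, a paralog of the release factor eRF3 gene, at 1.19, 0.311, 0.0865 and 0.365 CPM in F187, F325, F331 and F368 and at 4.92, 3.66, 4.78, 4.50 and 2.50 CPM in M351, M408, M9, M624 and M664 (log2 fold change 3.27, SE 0.79, edgeR adjusted p = 0.0421). In the p53-driven libraries these values lay at or near the floor of 3 counts, from 0.233 to 1.19 CPM. The fold change thus depends on the prior count. The gene passed the filter through the Myc-knockin tumors. Of the 18 other fits that tested it, 10 called it. It failed the filter without M624, without M664, without both and with at least 10 counts in every tumor. Genomic background, an estimated 1.115 reads per kilobase of exon in M351 and 1.23 in M9, adds to its values there. That share was not worked out. With background subtracted from all genes the log2 fold change was 3.75. Of 13 initiation regulators outside the Eif symbols, 9 genes of mTORC1 and its MNK relatives and 7 mitochondrial translation factors, none was called by edgeR in either direction. At an unadjusted p under 0.05, 3, 1 and 2 genes were higher and none lower, where 14.9% and 11.8% of all genes were. The medians of these 3 lists were 0.24, 0.20 and 0.51. The 4 factor genes listed as having a 5′ terminal oligopyrimidine tract, the mark of mRNAs under mTORC1, are Eif3e, Eif3f, Eif3h and Eif4b, all with positive estimates (median 0.71) and none called.

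Markers of cell types differed between the groups as well. The summed CPM of 6 osteoclast markers ranged from 2582 to 13530 in the p53-driven group and from 109 to 2540 in the Myc-knockin group, and that of 7 macrophage markers from 679.4 to 1228 in the p53-driven group, with a highest value of 679.3 in the Myc-knockin group. The 5 proliferation genes, which include Mki67 and Top2a, ranged from 353 to 601 and from 405 to 914, with M624, M408 and M351 above every p53-driven tumor and M664 and M9 within their range. Of the 8 osteoblast, 7 macrophage, 6 osteoclast and 5 leukocyte markers, 2, 3, 4 and 1 were called lower by edgeR, where 3% of all genes were. In addition, 1 of the 5 proliferation genes was called higher, where 2.26% of all genes were. The sums of 4 endothelial markers (293 to 431 and 75.0 to 409 CPM) and 5 skeletal muscle markers (9.09 to 3725 and 2.29 to 1544 CPM) overlapped, with no gene called in them. The 5 red cell markers, of which 1 had enough counts to be tested and was not called, summed to 216 CPM in M624 and 783 CPM in M664, against 3.56 to 12.9 CPM in the p53-driven tumors and 7.39, 26.7 and 5.58 CPM in M351, M408 and M9. The pair with the highest factor genes thus also held the highest red cell sums. No marker of these lists was at 0 in all tumors. M664, whose factor genes were nearly as high as those of M624, thus had a lower proliferation sum (405 CPM against 914 CPM), and the part of cell makeup and proliferation in the factor genes' values was not tested.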

How the data were processed

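RNA from whole tumors of 4 p53-driven and 5 Myc-knockin mice was, per the study's methods, enriched for mRNA with oligo-dT and made into stranded libraries. The submitters' processing notes name Trim Galore, STAR, featureCounts and mm10, and the authors deposited raw read counts per gene, with no normalization, in 1 table. The study gives a version of Trim Galore only as a code commit. Versions of STAR and featureCounts, the strand setting and the treatment of reads that map to several places are not given in the sources used here. Columns are named by tumor. F187, F325, F331, F368, M408 and M624 appear under their genotype in the study's supporting data, and M351, M9 and M664 were placed by the letter M. No column is tied to a numbered sample. Nothing says more of the samples than that they are separate tumors, so p-values measure the spread between tumors.

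Counts were tested in R 4.3.3 with edgeR 4.0.16 (TMM, filterByExpr with a minimum count of 10, glmQLFit and glmQLFTest, no covariate), on 15365 genes. log2 CPM used a prior count of 2. DESeq2 1.42.0 and limma 3.58.1 (voom with quality weights) were alternatives, as were other scalings and filters, subtraction of genomic background (set per kilobase from the reads on 1541 chemosensory receptor genes), and fits without single libraries or sets of them. Scripts were checked on counts simulated for 5 against 4 tumors, with 200 genes changed. There edgeR recovered 4.44% of 2-fold and 31.9% of 4-fold changes, and 3.26% of its calls were false. DESeq2 recovered 11.1% and 57.4%, and 24.7% of its calls were false. Positions and exon lengths came from GENCODE for the same build. Floors cover counting error only.

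Named were, for each complex, the gene with the smallest p, 10 genes listed by name (Myc, Eif4e, Eif4a1, Eif4a2, Eif4g1, Eif4ebp1, Eif2s1, Eif5, Eif5a and Eif6), any factor gene called, and the genes called from the other lists. Eif3a, Eif3f, Eif3k, Eif3m, Eif2b3, Eif4g3 and Eif5a2 were described after their values were seen, and other factor genes are given by level or estimate only. The members and all lists were chosen with earlier results of these data known. Satellite libraries as a covariate, and the fit without M9, M624 and M664, were added after seeing the data.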

Additional observations from a re-analysis of the deposited data

Results flagged for a closer look

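In groups of 4 or 5 tumors, a single tumor lay far from the rest of its group for 4 of 56 groups examined, where chance alone gives about 1 in 20. Eif4a2 was at 115.8 CPM in F331, against 80.97 to 86.26 CPM in the other p53-driven tumors. Eif6 was at 42.16 CPM in F325, against 20.54 to 22.73 CPM in the other p53-driven tumors. Eif5 was at 451.3 CPM in M408, while the other 4 Myc-knockin tumors had 224.1 to 271.1 CPM. Eif1a was at 35.05 CPM in M9, the library with the fewest counts on factor genes, while the other 4 Myc-knockin tumors had 117.0 to 126.8 CPM.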

How the results depend on the processing

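The number of factor genes called higher, 0 with all 9 tumors in edgeR, was (with the share of all genes called higher in brackets) 10 with DESeq2 (10.1%), 8 with at least 10 counts in every tumor (8.46%), 4 with genomic background subtracted (4.3%), 2 with upper-quartile scaling (4.07%), 1 with limma-voom (4.32%), 18 without the satellite libraries (15.7%), 7 at an adjusted p under 0.1 (7.82%), 8 with the satellite libraries as a covariate (7.86%) and 1 without M9, M624 and M664 (1.85%). The factor genes' own share was below that of all genes with limma-voom (2.08%) and near it with upper quartiles (4.17%) and without M9, M624 and M664 (2.08%). The number called lower was also 0 (3% of all genes). It was 1 with DESeq2 (7.3%), without the satellite libraries (12.1%), at an adjusted p under 0.1 (6.81%) and with the covariate (5.26%). With each tumor left out, 0 to 10 were called higher and 0 to 1 lower. Only without M9 (6.03% and 4.34% of all genes) was either above 0. Without F325, F331 or F368, at most 0.01245% of all genes were called higher and at most 0.03745% lower. In the fit without the satellite libraries, the groups are cut to 3 and 2 tumors. The causes of the other shifts were not tested. The median log2 fold change of the factor genes, 0.44, was 0.83 without the satellite libraries, where the median of all genes was 0, and lay between 0.17 and 0.57 in every other fit. The scaling moved the median of all genes from 0.03 with library size alone to 0.24 with upper quartiles, against 0.14 with TMM, and it was 0.97 when all genes with at least 1 count were kept. Upper quartiles called 626 genes higher and 345 lower, against 348 and 461 with TMM.

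Of 611 fits of 28 named genes, 508 kept direction and call, 61 gained a call, 23 lost one and 19 turned direction. The estimate of Eif4a2 was 0.08 with at least 10 counts in every tumor, with background subtracted and with the covariate, 0.06 with upper quartiles and 0.13 without the satellite libraries, and -0.10 to 0.12 with single tumors left out. Eif4g1 was at 0.06 without the satellite libraries. Eif4ebp1 was at -0.05 with limma-voom, -0.04 without M624 and M664 and -0.08 without M9 as well, and Eif6 was at -0.15 and -0.03 in those last fits. Eif3a was at -0.01 with all genes of at least 1 count, -0.10 with the covariate, -0.54 without the satellite libraries and -0.15 to 0.32 with single tumors left out. No paired analysis was possible because the columns carry no replicate numbers. Depth limits M9 most, where 3 counts equal 2.39 CPM.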
